A study of Mus musculus with 154 samples.

Results

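The growth-hormone-pulse-induced liver enzymes described here are 7 genes, Hsd3b5, Elovl3, Cyp4a12a, Cyp4a12b, Selenbp2, Cyp7b1 and Slco1a1, of the 13289 genes measured. They were named by symbol, and the choice was made on their measured values. They were chosen by their levels over the strains, by their spread between mice of 1 strain and by their relation to body weight. Those values are therefore given as descriptions, without tests. Liver RNA was sequenced from 154 mice, given as male, at 5 weeks of age and after an overnight fast. The mice came from 24 strains that tested how substituted chromosomes act alone and in pairs on gene expression. Every strain shared the C57BL/6J background, written B6, and each substituted chromosome was an A/J-derived copy carried in heterozygous form. The control strain was B6 itself (n = 20).

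The single chromosome substitution strains (CSSs) were (B6.A4 X B6)F1, (B6.A5 X B6)F1, (B6.A8 X B6)F1 and (B6.A10 X B6)F1, in which the sire carried the substitution, and (B6 X B6.A3)F1, (B6 X B6.A6)F1, (B6 X B6.A14)F1 and (B6 X B6.A17)F1, in which the dam carried it. They are written A4, A5 and so on for the chromosome, with 8 mice each except A5 with 7. The 15 double CSSs, with 3 to 6 mice each, combined the dams of chromosomes 3, 6, 14 and 17 with the sires of chromosomes 4, 5, 8 and 10, except 3 with 4. They carried a substituted chromosome from each parent, and are written dam first, so that A14:A8 stands for (B6.A8 X B6.A14)F1. The effect of a substitution was thus measured in heterozygous mice, and covers a whole chromosome. Of the cross of chromosomes 14 and 4, 1 mouse was left out of all values below, which therefore rest on the 154 mice less 1. Its summed Y-linked level was 3.23 CPM (read counts scaled to library size), against 192 to 477 CPM in the other mice. Its Cyp4a12a level was -1.38 log2 CPM, where the other A14:A4 mice lay between 5.54 and 6.62.

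In adult male mice the pituitary releases growth hormone in pulses, and each pulse activates the transcription factor STAT5B in hepatocytes. Genes that need these pulses rise in the male liver around puberty and are low in females, in which growth hormone is released more evenly. The 7 genes are known members of this male-biased programme. They act in steroid and oxysterol metabolism (Hsd3b5, Cyp7b1), in fatty acid elongation and hydroxylation (Elovl3, Cyp4a12a, Cyp4a12b), as a selenium-binding protein (Selenbp2) and in organic anion uptake (Slco1a1).

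The positions of the 7 genes are those of GENCODE vM21 on GRCm38, the build to which the authors aligned. On chromosome 3, a chromosome that the A3 strains carry from A/J, lie Cyp7b1 (chr3:18071950-18243338, minus strand), Selenbp2 (chr3:94693556-94704413, plus strand) and Hsd3b5 (chr3:98618634-98630252, minus strand). Cyp4a12a (chr4:115299046-115332815) and Cyp4a12b (chr4:115411624-115439034) are plus-strand neighbours on chromosome 4, which the A4 strains carry from A/J. Slco1a1 (chr6:141907282-141946962, minus strand) lies on chromosome 6, substituted in the A6 strains. Elovl3 (chr19:46131897-46135694, plus strand) lies on chromosome 19, which was not substituted in any strain.

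RefSeq promoter windows were given for 3 of the 7 genes. They are shown because the members moved together between mice, and each holds the 250 bases before the RefSeq start on GRCm38.p6, 5′ to 3′. Windows were searched on both strands for TTCNNNGAA, the palindrome that STAT5 proteins are known to bind, and for TTCNNNNGAA, which has 1 more spacer base. Capitals mark a match to either motif.
Hsd3b5 (chr3:98645535-98645784, minus strand): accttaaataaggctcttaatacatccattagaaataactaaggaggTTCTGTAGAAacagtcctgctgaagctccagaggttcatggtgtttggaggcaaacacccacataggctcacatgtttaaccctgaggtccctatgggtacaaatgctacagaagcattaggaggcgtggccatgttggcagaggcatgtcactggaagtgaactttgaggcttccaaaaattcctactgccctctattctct
Selenbp2 (chr3:94693323-94693572, plus strand): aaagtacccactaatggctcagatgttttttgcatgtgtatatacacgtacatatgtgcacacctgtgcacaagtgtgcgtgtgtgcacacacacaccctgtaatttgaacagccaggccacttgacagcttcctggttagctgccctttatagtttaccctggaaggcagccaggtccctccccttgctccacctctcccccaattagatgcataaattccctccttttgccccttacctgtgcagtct
Slco1a1 (chr6:141946963-141947212, minus strand): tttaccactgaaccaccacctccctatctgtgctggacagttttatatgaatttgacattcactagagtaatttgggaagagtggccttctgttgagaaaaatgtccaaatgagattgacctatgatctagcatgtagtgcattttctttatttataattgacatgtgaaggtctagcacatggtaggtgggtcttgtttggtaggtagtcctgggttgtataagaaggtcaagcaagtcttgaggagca
None of the 3 windows held TTCNNNGAA, which was present in 7.02% of 32851 such windows. The Hsd3b5 window held 1 match to TTCNNNNGAA, which was present in 5.85% of windows. The RefSeq start of Hsd3b5 lies upstream of the GENCODE gene end given above, so this window belongs to the RefSeq model. A match is a description of letters, and its absence says nothing about the factor.

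The total per mouse lay between 4638701 and 30465477 counts in genes. Counts of the members ranged from 20, for Hsd3b5 in its lowest mouse, to 25744, for Selenbp2 in its highest. Counting error alone gave a median SD of 0.10 on the log2 scale for Hsd3b5 and less for the other members, down to 0.02 for Slco1a1. Some members share sequence with close relatives, and reads from shared stretches can be split or lost in counting. Of all 50-base windows in the transcripts, 48.9% of those of Cyp4a12a and 49.4% of those of Cyp4a12b occurred in both genes. For Selenbp2, 43.9% of windows occurred also in Selenbp1, and for Hsd3b5 21.2% occurred in other genes, mostly in Gm10681. The share was 1.64% for Slco1a1, and no window of Elovl3 or Cyp7b1 was shared. In liver homogenates, fewer cells of a type and less RNA per cell cannot be told apart.

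Per kilobase of exon, the mean level over all mice was highest for Slco1a1, at 85.9 CPM per kilobase, followed by Cyp7b1 at 76.9, Selenbp2 at 55.2 and Elovl3 at 46.1 CPM per kilobase. Cyp4a12a followed at 25.7, Hsd3b5 at 14.4 and Cyp4a12b at 11.6 CPM per kilobase. These lengths count shared stretches, whose reads can be lost, so the levels of Selenbp2, the Cyp4a12 genes and Hsd3b5 may be understated and the order is not firm. In B6 alone, Cyp4a12b (10.8 CPM per kilobase) was above Hsd3b5 (9.06 CPM per kilobase).

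Hsd3b5 encodes a 3-ketosteroid reductase of the 3-beta-hydroxysteroid dehydrogenase family. In B6 its level was lowest at 1.09, at the median 9.86 and highest at 59.3 CPM. It was the most variable member between mice of 1 strain, with a pooled within-strain SD of 1.13 on the log2 scale. The highest strain was A3:A5, in which the 5 mice had 36.8, 50.5, 83.1, 85.6 and 120 CPM. The highest B6 mouse reached into this range, so the strains overlapped. The lowest strain mean was 3.02 log2 CPM in A14:A4, and B6 was second lowest at 3.25 log2 CPM.

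Cyp7b1 encodes the oxysterol 7-alpha-hydroxylase of the alternative bile acid pathway. In B6 it ranged from 13.4 through a median of 108 to 294 CPM, and its within-strain SD was 0.81 on the log2 scale. Its highest strain mean was 8.54 log2 CPM in A3:A8, in which the 3 mice had 187.9, 455 and 605 CPM. A17 was next at 7.98 log2 CPM, and its 8 mice ranged from 109 to 463.6 CPM. The lowest strain mean was 6.27 log2 CPM in A6, with mice between 51.8 and 119 CPM.

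Elovl3 encodes an elongase of very long chain fatty acids. It ranged from 8.37 through a median of 41.5 to 180 CPM in B6, with a within-strain SD of 0.93 on the log2 scale. A3:A5 was highest, with 104, 105, 164, 201.8 and 329 CPM in its 5 mice. A10 was lowest, at a mean of 4.70 log2 CPM. Its 8 mice reached from 4.75 to 72.2 CPM, so that this strain was also widely spread.

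Cyp4a12a and Cyp4a12b encode fatty acid omega-hydroxylases. In B6 the level of Cyp4a12a ranged from 3.78 through a median of 48.9 to 90.1 CPM. That of Cyp4a12b ranged from 3.63 through a median of 27.0 to 41.3 CPM. Their within-strain SDs were 0.62 and 0.63 on the log2 scale. Cyp4a12a was highest in A17:A5, in which the 5 mice had 93.1, 93.7, 104, 118 and 124.2 CPM. All 5 lay above the highest B6 mouse. Cyp4a12a in A17:A5 was the only case in which a strain lay wholly above B6 for a member. Cyp4a12b was highest in A3:A8, with 19.1, 53.1 and 54.7 CPM in its 3 mice.

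Selenbp2 encodes a selenium-binding protein that is abundant in liver. In B6 it ranged from 7.13 through a median of 72.6 to 230 CPM, and its within-strain SD was 0.92 on the log2 scale. In A3:A5, the highest strain, the 5 mice had 133, 167, 180.99, 261 and 399 CPM. In A6, the lowest, the mean was 5.74 log2 CPM and no mouse exceeded 85.3 CPM.

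Slco1a1 encodes the organic anion carrier Oatp1a1 of the hepatocyte's sinusoidal membrane. It was the least variable member, with a within-strain SD of 0.42 on the log2 scale, and ranged in B6 from 89.6 through a median of 347 to 635 CPM. The 5 mice of A3:A5 had 523, 618, 746.9, 766 and 823 CPM, the highest strain mean. A14:A8 had the lowest mean, 8.06 log2 CPM, with 234, 241.4, 269, 288 and 305 CPM in its 5 mice, which were close together.

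**Figure D1:**
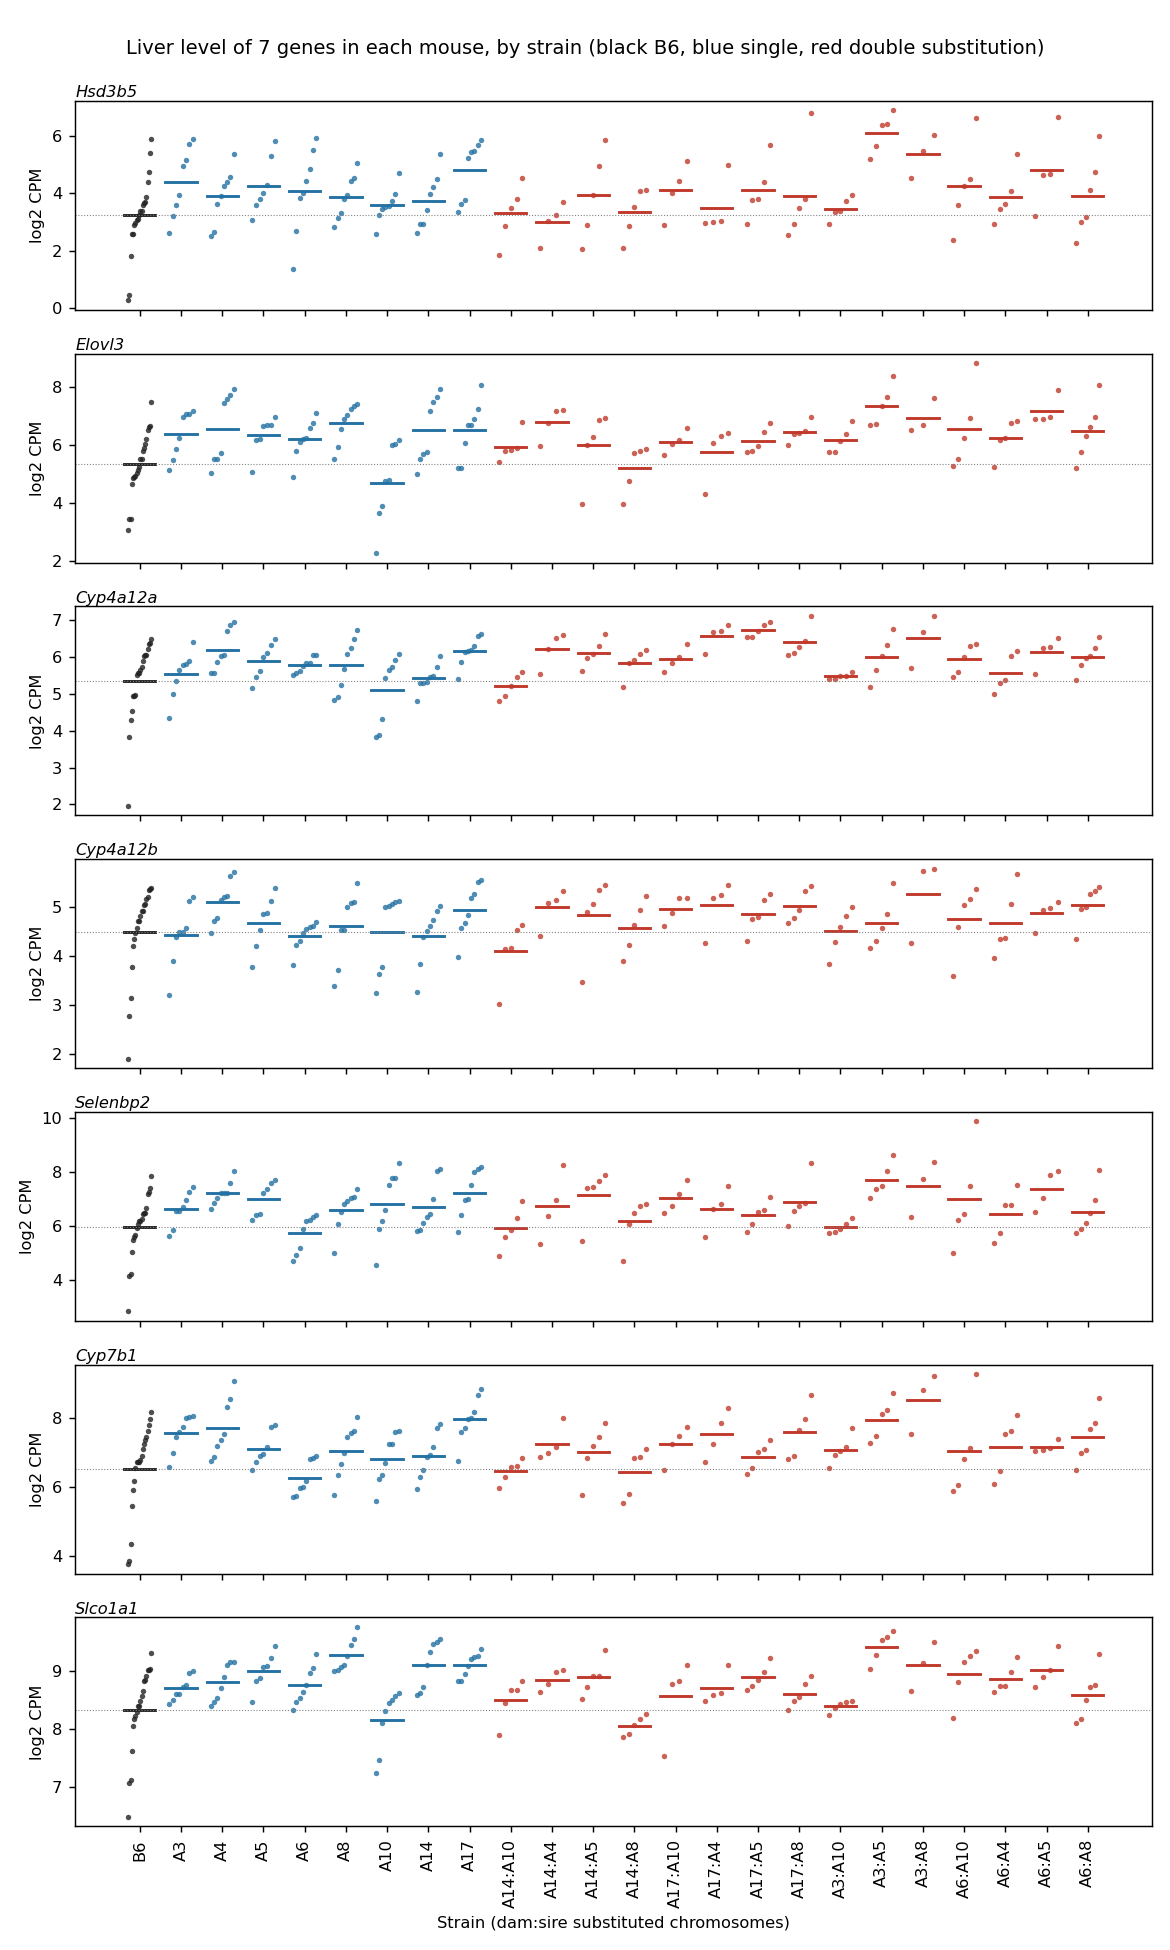
The y axis gives log2 CPM of each gene and the x axis the 24 strains; points are mice, horizontal bars are strain means, and the dotted line is the B6 mean. B6 (black) sits among the lowest strain means for each gene, with a mean of 3.25 log2 CPM for Hsd3b5 against 6.11 in A3:A5. Its mice span more than those of most strains, but it had 20 mice where the others had 3 to 8, and a larger group spans more. The SD does not grow with group size in this way. In B6 it was above the pooled within-strain SD for each gene, such as 0.74 against 0.42 on the log2 scale for Slco1a1.

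The B6 mean was among the lower strain means of the 24 for each member. Its rank from the lowest was 2 for Hsd3b5, 3 for Elovl3, Cyp4a12a and Slco1a1, 4 for Selenbp2 and Cyp7b1, and 5 for Cyp4a12b. Between 19 and 22 of the other 23 strain means were above it. The order of neighbouring strains was not sharp. For 6 members, all 23 gaps between neighbouring strain means were within 1 SE of the difference, and for Cyp7b1 22 of 23 were. Gaps between neighbours among 24 sorted means are small nearly by construction. The count therefore says nothing about strains far apart in the order. Strain accounted for between 17.2% of the variance (Cyp4a12b) and 44.1% (Slco1a1), and the remainder was spread between genetically alike mice. Without any strain effect, 24 strains would give a share of 15.1%, to which the value of Cyp4a12b is close. Over all genes the median share was 25.9%.

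Spread within a strain was large for each member. The median within-strain SD over all 13289 genes was 0.23 on the log2 scale. The SD of Hsd3b5 exceeded that of 99.8% of the other genes, and that of Slco1a1, the steadiest member, exceeded that of 83.4%. In B6 the highest mouse exceeded the lowest 54.5-fold for Hsd3b5, 32.3-fold for Selenbp2, 23.9-fold for Cyp4a12a and 21.9-fold for Cyp7b1. It was 21.6-fold for Elovl3, 11.4-fold for Cyp4a12b and 7.09-fold for Slco1a1.

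The same B6 mice were low for every member. B6 mice 1, 14 and 5 were among the 5 lowest of 20 for all 7 genes. Hsd3b5 stood at 3.37, 1.25 and 1.09 CPM in these 3 mice, and at 5.84 CPM or more in the other 17. Cyp7b1 stood at 20.2, 14.4 and 13.4 CPM, against 43.8 CPM or more. Elovl3 stood at 8.37, 10.8 and 10.9 CPM, against 24.9 CPM or more in the other 17. The omega-hydroxylases were low in the same mice. Cyp4a12a was at 3.78, 14.1 and 19.3 CPM in the 3 mice and at 23.1 CPM or more in the others. Cyp4a12b was at 3.63, 8.76 and 6.73 CPM, against 13.6 CPM or more. Selenbp2 was at 17.7, 7.13 and 18.6 CPM, against 33.4 CPM or more in the others. Slco1a1 was at 89.6, 135 and 139.9 CPM, against 197 CPM or more. At the other end, B6 mouse 9 was among the 5 highest for all 7 genes. Since these mice were picked out by the members' own levels, the separation is a description.

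**Figure D2:**
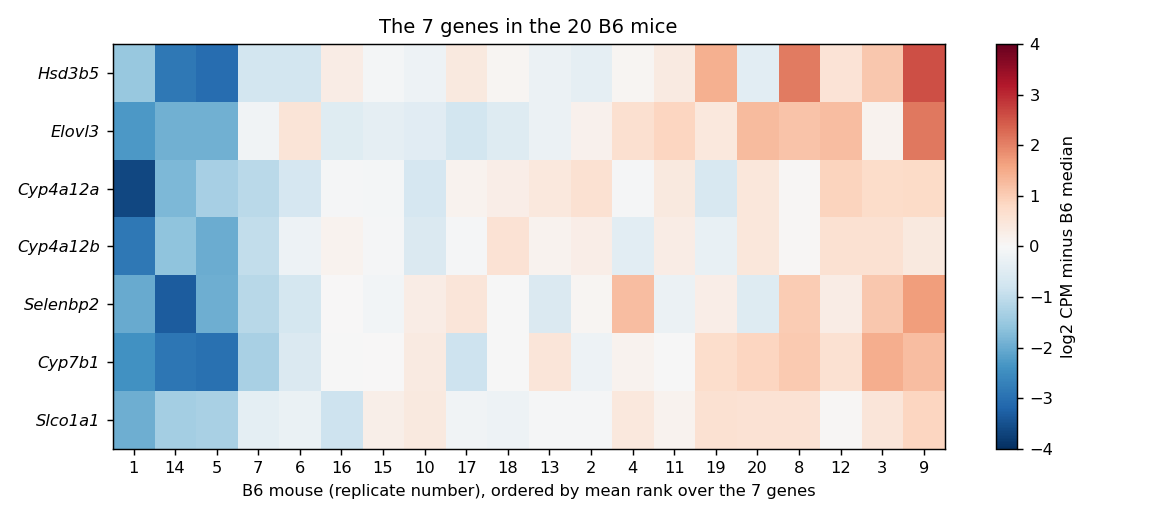
Rows are the 7 genes and columns the 20 B6 mice, ordered by their mean rank over the genes; colour gives log2 CPM minus the B6 median of the gene. Mice 1, 14 and 5 are low in every row and mouse 9 is high in every row.

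Several other genes were examined in these 3 B6 mice, and some were apart from the other 17. Mup7, a major urinary protein gene that males express strongly, was at 11.5, 20.2 and 16.8 CPM in mice 1, 14 and 5, and between 133 and 953 CPM in the other 17. Cyp2b9, a steroid hydroxylase that is higher in females, was at 20.7, 37.7 and 15.04 CPM and overlapped with the others, which reached 15.2 CPM. H19, an imprinted RNA that falls in liver after birth, was at 21.6, 19.5 and 31.7 CPM, against 0.00 to 5.01 CPM. The growth hormone receptor Ghr was at 203, 239 and 243 CPM, below the 267 CPM of the lowest of the other 17. Igf1, the hepatic growth factor that growth hormone induces, overlapped between them, with 589, 497 and 411.2 CPM against 484 to 986 CPM. Albumin was within the range of the others, at 83432 to 93555 CPM. These mice were not the shallowest libraries, since their totals ranked 20, 10 and 11 from the lowest of 20. Their body weights ranked 6, 5 and 3.5 from the lowest. These genes were chosen after the 3 mice had been seen, and the separation was not tested.

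Without these 3 mice, the SD between B6 mice fell from 1.38 to 0.94 on the log2 scale for Hsd3b5 and from 1.29 to 0.73 for Cyp7b1. The highest B6 mouse then exceeded the lowest 10.1-fold for Hsd3b5 and 3.22-fold for Slco1a1. The B6 mean rose from 3.25 to 3.68 log2 CPM for Hsd3b5, and its rank from the lowest became 7. The rank became 13 for Cyp4a12b, 7 for Cyp4a12a and Cyp7b1, 6 for Slco1a1 and 5 for Selenbp2, and stayed at 3 for Elovl3.

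The members moved together between mice of 1 strain. Over all mice kept, with strain means removed, Pearson's r between 2 members had a median of 0.67 over 21 pairs. It was lowest at 0.31 for Hsd3b5 with Cyp4a12b and highest at 0.82 for Selenbp2 with Cyp7b1. The neighbouring genes Cyp4a12a and Cyp4a12b, which share reads, had r = 0.81. The median over pairs of all genes with a mean of at least 2 log2 CPM was -0.00. Among the 20 B6 mice r ran from 0.63 to 0.95, with a median of 0.79. Without the 3 low B6 mice, the median was 0.60 within strains and 0.55 over the 17 remaining B6 mice, where the lowest pair had r = 0.14. The pairs share libraries and depth, and these correlations describe them without a test.

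All 7 members were higher in the heavier mice of a strain on average. Against the body weights that the study lists for the same mice, with strain means removed over all mice kept, r was 0.52 for Cyp7b1 (Spearman's rho 0.50) and 0.43 for Hsd3b5 (rho 0.42). Elovl3 had r = 0.51 (rho 0.51), Cyp4a12a r = 0.40 (rho 0.38) and Cyp4a12b r = 0.43 (rho 0.40). Selenbp2 had r = 0.51 (rho 0.51) and Slco1a1 r = 0.31 (rho 0.34). An r of at least 0.3 was reached by 7 of 7 members and by 2.63% of all genes. Because the relation to body weight was among the values that chose the members, nothing is read from this difference.

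Within the 10 strains that had at least 6 mice, r was above 0 in 10 strains for Cyp4a12a, in 8 for Elovl3 and in 9 for each of the other members. A5 was the strain below 0 for Hsd3b5, Selenbp2, Cyp7b1 and Slco1a1. A5 and A17 were below 0 for Elovl3, and A14 was for Cyp4a12b. In B6 alone, r was 0.65 for Hsd3b5, 0.56 for Cyp7b1 and 0.41 for Slco1a1. Without the 2 mice farthest from the median weight, r stayed between 0.29 (Slco1a1) and 0.49 (Cyp7b1). Across the 24 strain means, r ranged from 0.06 for Cyp4a12a to 0.57 for Elovl3.

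**Figure D3:**
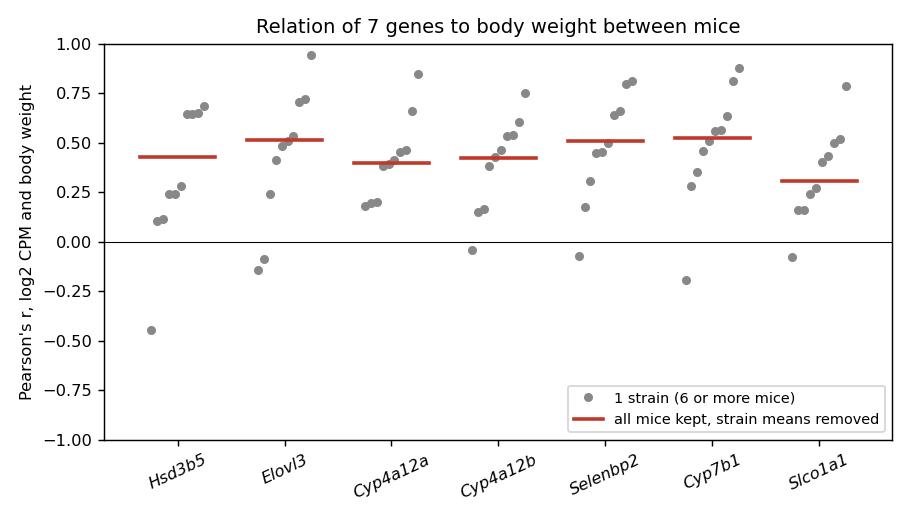
The y axis is Pearson's r between log2 CPM and body weight and the x axis the 7 genes; grey points are the 10 strains with at least 6 mice and red bars the value over all mice kept with strain means removed. The red bars lie between 0.31 and 0.52, and few grey points are below 0.

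The genes most like the members were then sought among 9607 other genes with a mean of at least 2 log2 CPM. Likeness was r over all mice kept, with strain means removed, to the mean of the 7 scaled members. The 10 highest were C6 (r = 0.85), a terminal complement component, the predicted gene Gm13773 (0.83), the major urinary protein genes Mup1 (0.82), Mup12 (0.81), Mup14 (0.80), Mup3 (0.76), Mup7 (0.76) and Mup21 (0.75), the serpin Serpina12 (0.77) and the carboxylesterase Ces3a (0.75). By Spearman's rho, 6 of these were among the 10 highest. C6 was at 41.5 to 46.8 CPM in the 3 low B6 mice and at 81.0 to 206 CPM in the other B6 mice. Mup7 was apart in the same mice, as given above. The likeness values may thus lean on those mice, and none without them is given here. Urinary protein genes share much sequence with each other, so that they are not separate observations. Of the 5 lowest, 4 were the lipoprotein lipase Lpl (-0.61), the glutathione transferase Gstt3 (-0.60), the organic anion carrier Slco1a4 (-0.59) and the leptin receptor Lepr (-0.57). C6 was the closest gene for Elovl3 (r = 0.77), Cyp4a12b (0.72), Selenbp2 (0.78) and Cyp7b1 (0.85). The closest gene was Hao1 for Hsd3b5 (0.79), Ces3a for Cyp4a12a (0.68) and Mup3 for Slco1a1 (0.79).

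Male-biased genes outside the 7 followed the same pattern between mice. Of a list of 13, all had r above 0 with the mean of the members, with a median of 0.72, where 4980 of the 9607 genes did and the median was 0.01. This list and those below were written with earlier results of these data known. C6, Mup1, Mup3, Mup7 and Mup21 are on it and were also among the 10 highest above. Its urinary protein genes share sequence, so the 13 are not separate observations, and nothing further is read from their likeness. The epidermal growth factor receptor Egfr was lowest at 0.14. Of 10 female-biased genes in the table, 1 had r above 0, Cyp3a16 at 0.04, and the median was -0.34. Among the lowest were the steroid hydroxylases Cyp2b9 (-0.69) and Cyp2a4 (-0.68). Cyp2b9, Cyp2a4, Cux2, Cyp3a16 and Cyp3a44 had means under the 2 log2 CPM asked of the 9607 genes, so their r rests on low counts. The same held for Cspg5 of the male-biased list. A further 7 listed female-biased genes, A1bg, Cyp2b13, Cyp3a41a, Cyp3a41b, Sult2a1, Sult2a2 and Sult3a1, were absent from the table.

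The growth hormone pathway itself was split. Of 14 genes, 8 had r above 0, and the median was 0.07. The receptor Ghr had r = 0.56, the growth factor Igf1 0.56 and its circulating partner Igfals 0.58. The kinase Jak2 had r = 0.29, Stat5b -0.23 and Stat5a -0.00. The direct STAT5 targets Cish (0.05) and Socs2 (0.11), which brake the signal, were near 0, as was the repressor Bcl6 (-0.07). Of 3 genes that decline after birth, H19 had -0.52, Afp -0.23 and Gpc3 0.02, while Igf2 and Dlk1 were absent from the table. The median of H19 over all mice was 0.68 CPM. In B6 it was at 19.5 to 31.7 CPM in the 3 low mice and at most 5.01 CPM in the other 17. Its r may thus lean on mice picked by the members' own levels, and no value without them is given here. The same limit holds for the r of other genes in which these mice were apart, such as Ghr, Mup7 and C6. Of 12 clock genes, 4 had r above 0, and they lay between -0.25 (Ciart) and 0.12 (Clock).

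**Figure D4:**
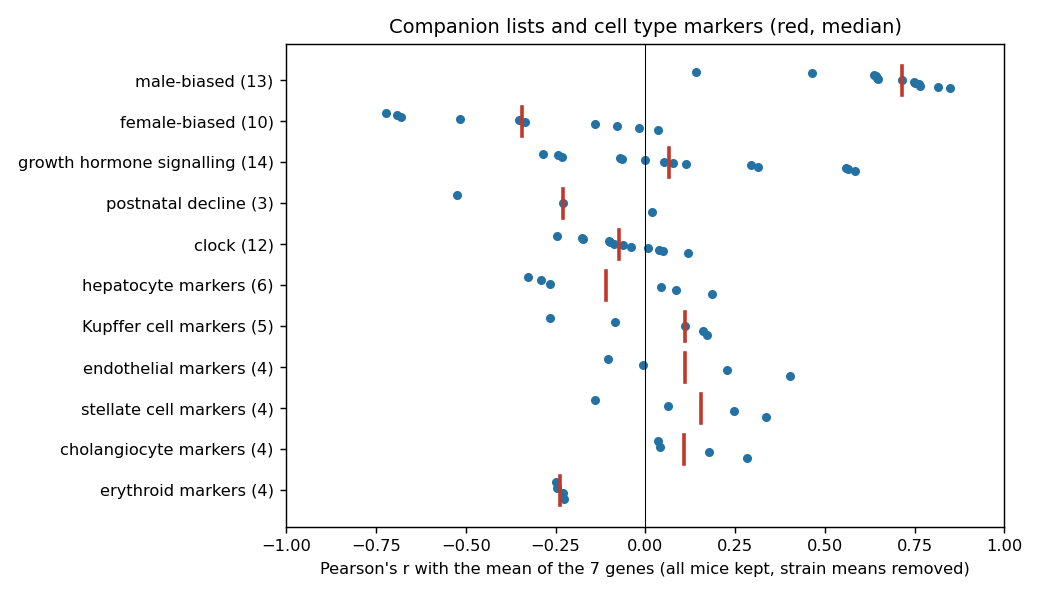
The x axis is Pearson's r with the mean of the 7 genes over all mice kept with strain means removed, and the rows are lists with their number of measured genes; points are genes and red bars medians. The 13 male-biased genes are to the right of 0, at a median of 0.72, and the female-biased genes mostly to the left, at a median of -0.34.

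Markers of other cells and library measures were compared with the mean of the members in the same way. The summed level of 6 hepatocyte markers had r = -0.30 and ranged from 46612 to 146591 CPM over the mice. Most of that sum was Alb (r = -0.29, median 77799 CPM). The other hepatocyte markers were split, with Cps1 at -0.33 and Tat -0.26, but Ttr at 0.19, Serpina1a 0.09 and Apoa1 0.04. The summed cholangiocyte markers had r = 0.30 (21.4 to 75.8 CPM, 4 of 5 genes measured, with Krt19 absent). Most of that sum was Spp1 (r = 0.28, median 29.2 CPM), while Sox9 had 0.18 and Krt7 and Epcam 0.04 each at low levels. The endothelial markers had r = 0.25 (189 to 301 CPM, 4 genes) and the erythroid markers -0.23 (65.8 to 671 CPM, 4 genes). The single endothelial markers were split, with Clec4g at 0.40 and Kdr 0.23, but Stab2 at -0.01 and Pecam1 -0.10. Stellate cell markers (4 genes, 221 to 393 CPM) had r = 0.03 and Kupffer cell markers (5 genes, 180 to 508 CPM) had r = -0.02. All 4 pancreas markers, Cela3b, Cpa1, Pnlip and Prss2, were absent from the table. The log2 total count had r = -0.10. Their part in the pattern of the members was not tested.

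The main effect of a substitution is its effect on the B6 background in a model that also holds the 15 pairwise terms and 5 surrogate variables, which are factors estimated from the counts. Passing means a false discovery rate (FDR) under 0.05 in edgeR's quasi-likelihood F-test. The members' log2 fold changes are given with their SE as descriptions, because strain levels chose the members. All 8 contrasts share the 20 B6 mice. Of 56 values for the 7 members, 24 passed, where 10.5% of all such values over all genes did. Without surrogate variables 12 of 56 passed (13.6% of all), with 10 of them 6 did (4.2% of all) and with body weight as a covariate 14 did (7.53% of all). Without the 3 low B6 mice, which were left out because of the members' own levels, 11 did (6.03% of all). The counts thus depend on the model and on 3 control mice. The mean body weight of B6 ranked 4 from the lowest of the 24 strains, and its part in these values was not tested beyond that covariate.

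For chromosome 17, 5 of 7 members passed, against 3.29% of all genes, and all 5 were higher than in B6. Hsd3b5 was higher by 1.51 ± 0.37 (SE) on the log2 scale, Cyp7b1 by 1.35 ± 0.30, Selenbp2 by 1.29 ± 0.35, Elovl3 by 1.18 ± 0.35 and Slco1a1 by 0.66 ± 0.16. The Cyp4a12 genes had 0.61 and 0.29 and did not pass. The 5 that passed did so also without surrogate variables, where 1749 of all 13289 genes passed. Cyp7b1 alone passed without the 3 low B6 mice, at 1.16. There the share of all genes passing was below the 3.29% given above.

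For chromosome 4, 6 of 7 passed, against 13.4% of all genes. The neighbours Cyp4a12a (0.84 ± 0.22) and Cyp4a12b (0.59 ± 0.23) lie on this chromosome. Elovl3 was higher by 1.46 ± 0.32, Selenbp2 by 1.45 ± 0.34, Cyp7b1 by 1.31 ± 0.30 and Slco1a1 by 0.53 ± 0.16. Of them, 3 passed without surrogate variables, namely Elovl3, Cyp7b1 and Cyp4a12a. Those 3 and Selenbp2 passed without the 3 low B6 mice. In these alternatives 1421 and 1441 of all 13289 genes passed.

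For chromosome 8, 5 of 7 passed, against 27.0% of all genes. Elovl3 was higher by 1.91 ± 0.37, Selenbp2 by 1.31 ± 0.39, Cyp7b1 by 1.05 ± 0.35, Slco1a1 by 1.01 ± 0.18 and Cyp4a12a by 0.78 ± 0.25. Elovl3 and Slco1a1 were the pair that passed also without surrogate variables and without the 3 low B6 mice. In these alternatives 5431 and 2005 of all 13289 genes passed for chromosome 8. Without surrogate variables, the share of members passing (2 of 7) was thus below that of all genes. For Selenbp2 the value without surrogate variables was 0.39 on the log2 scale, and it did not pass.

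For chromosome 14, 4 of 7 passed, against 20.4% of all genes. They were Elovl3 (1.93 ± 0.35), Selenbp2 (1.43 ± 0.36), Hsd3b5 (1.09 ± 0.40) and Slco1a1 (0.89 ± 0.16). Elovl3 and Slco1a1 passed also without surrogate variables, and these and Selenbp2 without the 3 low B6 mice. In these alternatives 3022 and 1435 of all 13289 genes passed for chromosome 14. Without surrogate variables the value fell to 0.23 for Hsd3b5 and to 0.63 for Selenbp2. For chromosome 3, 3 of 7 passed, against 3.82% of all genes. These were Hsd3b5 (1.25 ± 0.34) and Cyp7b1 (0.85 ± 0.29), which lie on it, and Elovl3 (1.06 ± 0.31). None of the 3 passed without surrogate variables or without the 3 low B6 mice, where 129 and 152 of all 13289 genes did. For chromosome 10, Selenbp2 passed (1.57 ± 0.35), against 7.21% of all genes. It did so without the 3 low B6 mice (650 of all 13289 genes) but not without surrogate variables (1301 of them). For chromosome 5 (0.722% of all genes passed), 0 of 7 members passed in edgeR and 0 in DESeq2, and 4 had an unadjusted p under 0.05 in edgeR. For chromosome 6 (8.25%), the counts were 0 in both tools and 1 at the unadjusted threshold. The shares of all genes in DESeq2 and at the unadjusted threshold are not given here, so nothing is read from those counts.

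**Figure D5:**
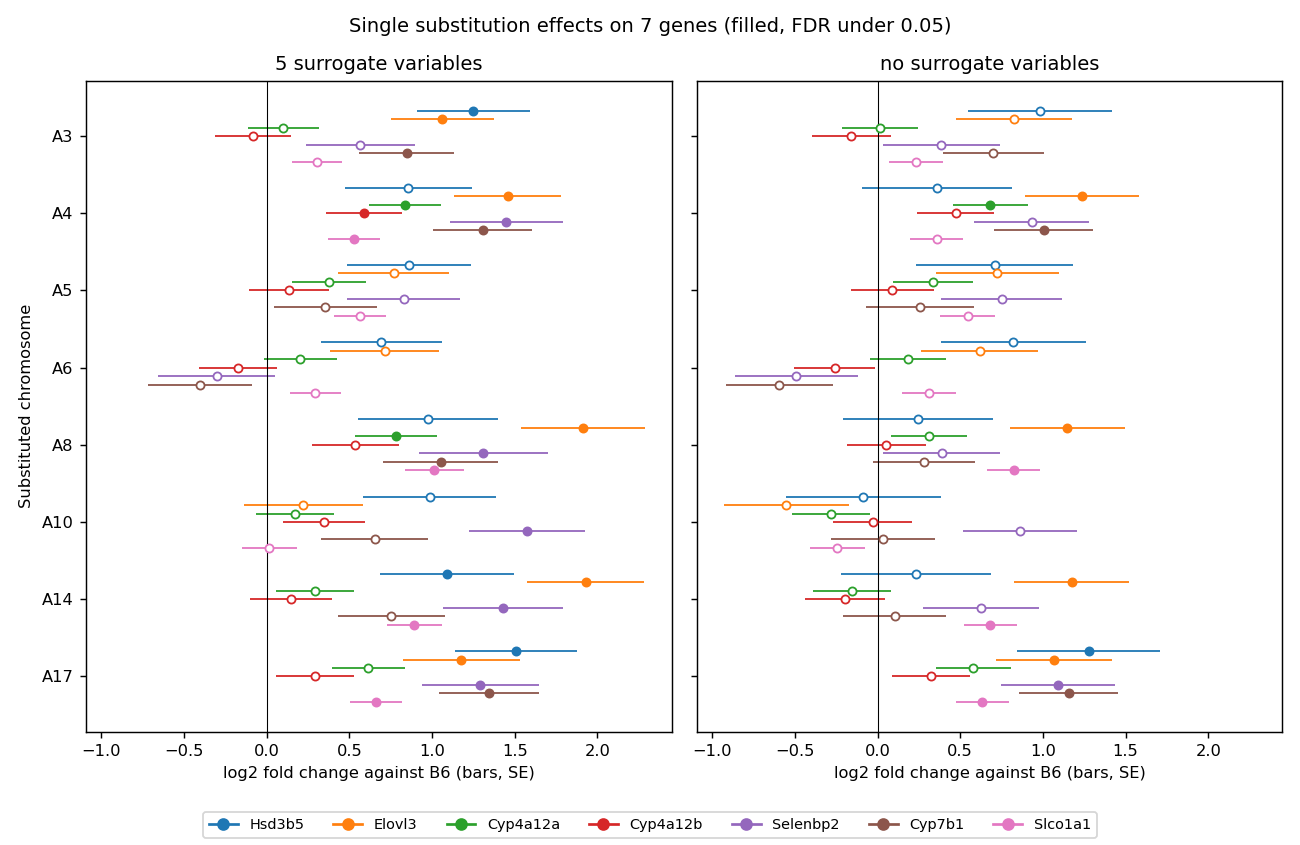
The x axis is the log2 fold change against B6, with bars for the SE, and the y axis the substituted chromosome; colours are the 7 genes, filled points passed an FDR of 0.05, and the panels show the model with 5 and with no surrogate variables. On the left, 24 of 56 points are filled, and on the right 12 are.

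An interaction is what a double CSS shows, on the log2 scale, beyond the 2 main effects added together. Of 105 member values, 12 passed, against 5.05% over all genes, and each of these 12 was negative. Without surrogate variables 5 passed (8.67% of all), with 10 of them 2 did (1.12% of all) and with body weight as a covariate 6 did (4.17% of all). Without the 3 low B6 mice 7 passed (2.56% of all), and in DESeq2's Wald test 20 did (5.45% of all). B6 enters every interaction with the same sign as the double CSS, so these values share their controls with each other and with the main effects.

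The cross of chromosomes 14 and 8 held 4 of the 12, where 30.0% of all genes passed. Elovl3 was at 15.4, 27.3, 52.7, 54.9 and 58.5 CPM in the 5 mice of A14:A8. Its lowest, median and highest values were 32.1, 100.03 and 245 CPM in A14, 45.2, 125.5 and 172 CPM in A8, and 8.37, 41.5 and 180 CPM in B6. The double CSS lay within the B6 range, below 7 of 8 mice of A8 in its highest mouse, and overlapped with the lower mice of A14. The interaction was -3.67 ± 0.65. Slco1a1 was at 234 to 305 CPM in A14:A8, below each of the 8 mice of A14, which began at 384 CPM, and of A8, which began at 515 CPM. Its interaction was -2.13 ± 0.29. Selenbp2 (-2.26 ± 0.65) and Cyp7b1 (-1.78 ± 0.57) were the others that passed. All 4 passed in 5 of 5 refits that each omitted 1 mouse and without the 3 low B6 mice (2758 of all 13289 genes). The refits here and below kept the surrogate variables and spread estimates (dispersions) of the full fit, in which the omitted mouse had a part. Elovl3 (-2.63) and Slco1a1 (-1.92) passed also without surrogate variables, where Selenbp2 shrank to -1.01 and Cyp7b1 to -0.75. There 4906 of all genes passed, so the share of members passing (2 of 7) was below that of all genes.

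The cross of chromosomes 14 and 10 held Selenbp2 (-3.27 ± 0.66), where 3.12% of all genes passed. Its 5 mice had 29.5, 49.0, 58.8, 79.8 and 121 CPM of Selenbp2, where A10 had a median of 139 CPM and A14 one of 84.1 CPM. It passed with each mouse left out, without surrogate variables and without the 3 low B6 mice. The value shrank to -1.76 without surrogate variables (1527 of all 13289 genes passed) and to -2.85 without the 3 low B6 mice (67 passed). In the cross of chromosomes 17 and 8, Slco1a1 passed (-1.32 ± 0.29, 6.42% of all genes), and it also passed with each mouse left out. It passed at -1.31 without surrogate variables (3273 of all 13289 genes) and at -1.05 without the 3 low B6 mice (73 of them).

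In the cross of chromosomes 6 and 8, where 23.0% of all genes passed, Elovl3 (-1.52 ± 0.57) and Slco1a1 (-1.08 ± 0.27) did. This cross had 6 mice, and refits omitting 1 mouse were not run for it. In the cross of chromosomes 14 and 5 (2.75% of all genes), Elovl3 (-2.17 ± 0.61) and Slco1a1 (-1.06 ± 0.28) passed. The value of Elovl3 there passed in 3 of 5 refits that each left out 1 mouse, and that of Slco1a1 in 4 of 5. Elovl3 in the cross of chromosomes 14 and 4 (-2.20 ± 0.65; 1.94% of all genes) passed in 1 of 4 such refits. Selenbp2 in the cross of chromosomes 3 and 10 (-2.07 ± 0.59; 1.39% of all genes) passed in 0 of 5. Of these 6 values, Slco1a1 in the cross of chromosomes 6 and 8 alone passed without surrogate variables and without the 3 low B6 mice. In these alternatives 3975 and 1561 of all 13289 genes passed for that cross.

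The companion lists were examined in the same fit, with p-values adjusted over all genes within each effect. They were written with earlier results of these data known, so their counts are descriptions. Over the 8 main effects, 5.19% of all values passed as higher and 5.33% as lower. Of 104 values for the 13 male-biased genes, 30 passed as higher and 1 as lower, with a median log2 fold change of 0.40. The median over all genes of the 8 effects was -0.00. Mup1 was higher by 1.89 ± 0.26 for chromosome 4, on which it lies (FDR 2.09e-09). The glutathione transferase Gstp1 was higher by 0.95 ± 0.15 for chromosome 4 (FDR 9.63e-06), and the glucuronosyltransferase Ugt2b1 by 0.63 ± 0.14 for chromosome 8 (FDR 0.000379). Without surrogate variables the counts were 18 higher and 2 lower, and without the 3 low B6 mice 13 and 1.

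Of 80 values for the 10 female-biased genes, 2 passed as higher and 22 as lower, with a median of -0.62. Cyp17a1, the steroid 17-alpha-hydroxylase, fell by 1.76 ± 0.34 on the log2 scale (FDR 2.84e-05) and the acyl-CoA thioesterase Acot3 by 1.38 ± 0.44 (FDR 0.0118) for chromosome 8. Without surrogate variables 4 passed as higher and 19 as lower, and without the 3 low B6 mice 2 and 11.

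Of 112 values for 14 growth hormone signalling genes, 15 passed as higher and 12 as lower, with a median of 0.01. Ghr was higher by 0.40 ± 0.07 for chromosome 6 (FDR 7.79e-05). The binding protein Igfbp3 fell by 0.42 ± 0.09 for chromosome 3 (FDR 0.00505) and the nuclear receptor Hnf4a by 0.32 ± 0.08 for chromosome 4 (FDR 0.00273). Without surrogate variables 5 passed as higher and 13 as lower, and without the 3 low B6 mice 4 and 7. Of 24 values for the 3 genes of postnatal decline, 8 passed as lower and 0 as higher in edgeR. As higher, 0 passed in DESeq2 too and 0 had an unadjusted p under 0.05 in edgeR. H19 fell by 4.01 ± 0.63 for chromosome 8 (FDR 2.95e-07) and Gpc3, a heparan sulphate proteoglycan, by 0.95 ± 0.32 for chromosome 14 (FDR 0.0229). The median of H19 over all mice was 0.68 CPM, well below its level in the 3 low B6 mice, without which 3 values passed. Of 96 values for 12 clock genes, 5 passed as higher and 4 as lower. These counts are close to the shares of all values, 5.19% and 5.33%, so nothing is read from them. Clock was higher by 0.38 ± 0.06 for chromosome 8 (FDR 2.53e-06), Cry1 higher by 0.62 ± 0.18 (FDR 0.0105) and Dbp lower, at -1.53 ± 0.45 (FDR 0.0138), for chromosome 4. With 10 surrogate variables Dbp turned to 0.21 and 1 clock value passed, and with body weight as a covariate 3 did. Of the markers, 1 hepatocyte value passed as higher and 10 as lower of 48, 6 and 4 of 40 Kupffer cell values, 6 and 0 of 32 endothelial values, and 4 and 1 of 32 stellate cell values. Their part in the members' values was not tested.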

How the data were processed

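RNA of 154 mouse livers labelled male, 1 library per mouse, was measured as raw counts of reads per gene, which the authors deposited in 1 table after low genes had been removed. Per the study's methods and the submitters' processing notes, single-end reads of 50 bases were aligned with TopHat2 to mm10, with a second pass against a genome individualized for A/J, and counted with HTSeq on GENCODE genes. Reads shared by gene copies can be lost in this step. From these counts, log2 CPM (prior count 2) was computed after TMM scaling. Strain effects were fitted over the mice kept and 13289 genes with 8 main effects, 15 interactions and 5 surrogate variables (R 4.3.3, edgeR 4.0.16, sva 3.50.0), and p-values were adjusted within each effect separately for genes on and off the substituted chromosomes. DESeq2 1.42.0 was an alternative. 1 mouse, whose low Y-linked level goes against its label, was left out. Groups came from the labels, which give no batch or culture of origin beyond the cross, so that p-values measure the spread between mice of a cross.

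The members and the gene lists were chosen with earlier results of these data known. All 7 members were described. Of each companion list, up to 3 genes with the most main effects past the threshold were named, with ties broken by the smallest unadjusted p. Likeness named the 10 highest and 5 lowest genes. Of the genes these rules pick, 1 is not reported here. Other B6 genes were named after their values were seen. The models were tested on simulated data. When surrogate variables were estimated again there, unchanged genes were called more often than the threshold allows, so the counts of calls may hold more false ones.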

Additional observations from a re-analysis of the deposited data

Results flagged for a closer look

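In 6 of 154 groups, each formed by 1 gene in 1 strain of 4 to 10 mice, 1 mouse stood farther from the others than Dixon's 95% value allows. Chance gives about 1 in 20 such groups. In A17:A4 the highest mouse for Hsd3b5 was at 4.98 log2 CPM and the lowest for Elovl3 at 4.33 log2 CPM. Elovl3 also had a low mouse in A5, at 5.09 log2 CPM, and a high mouse in A6:A5, at 7.91 log2 CPM. In A14:A5 the same mouse was lowest for Cyp4a12b (3.46 log2 CPM) and Selenbp2 (5.46 log2 CPM).

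The effect of 1 substitution differed with the presence of another in 12 interactions, given as log2 fold changes. Because strain levels chose the genes, they are descriptions. For the cross of chromosomes 14 and 8 they were -3.67 for Elovl3, -2.26 for Selenbp2, -2.13 for Slco1a1 and -1.78 for Cyp7b1. Selenbp2 had -3.27 in the cross of chromosomes 14 and 10 and -2.07 in that of chromosomes 3 and 10. Elovl3 had -2.20 in the cross of chromosomes 14 and 4, -2.17 in that of 14 and 5, and -1.52 in that of 6 and 8. Slco1a1 had -1.06 in the cross of chromosomes 14 and 5, -1.32 in that of 17 and 8, and -1.08 in that of 6 and 8.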

How the results depend on the processing

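The members' 24 main effects past the threshold became 12 with 0 surrogate variables, 6 with 10, 14 with body weight as a covariate and 11 without the 3 low B6 mice. That last alternative was chosen after seeing the data and raises B6 by construction. Their 12 interactions became 5, 2, 6 and 7 in the same order, and 20 with DESeq2's Wald test. The male-biased list went from 31 values to 20, 13, 16 and 14 in that order. With 10 surrogate variables the female-biased list went from 24 to 12, growth hormone signalling from 27 to 9, postnatal decline from 8 to 5 and the clock from 9 to 1. Without the 3 low B6 mice the first 3 of these lists went to 13, 11 and 3. With body weight, postnatal decline went to 5 and the clock to 3. A filter of at least 15 counts in 75% of mice left 5 of 10 female-biased genes and 13 values. It left 0 of 3 genes of postnatal decline, so no value. The median within-strain SD went from 0.81 to 0.70 without the 3 low B6 mice. Dbp for chromosome 4 turned to 0.21 with 10 surrogate variables. The cause of these shifts was not tested.

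With 1 mouse of a cross left out, the count of members ran from 0 to 0 (all mice: 1) in A3:A10, 0 to 1 (1) in A14:A4, 0 to 2 (2) in A14:A5, 1 to 3 (1) in A14:A10, 1 to 2 (1) in A17:A8 and 4 to 4 (4) in A14:A8. The surrogate variables and dispersions of the full fit were kept in these refits. Single fold changes of members also shifted, such as that of Hsd3b5 for chromosome 10 from 0.99 to -0.09 with 0 surrogate variables. No paired analysis was possible because the labels give no replicate numbers shared between strains. For Hsd3b5 in the shallowest mouse, the count limits the precision.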
